A study of Mus musculus with 16 samples.

Results

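The SLAM family receptors are a group of related surface proteins of blood cells, and 8 of their genes were followed here across 2 mouse lymphoid lines: Slamf1, Slamf6, Slamf7, Slamf8, Slamf9, Cd48, Cd84 and Ly9. They were chosen by symbol, and all 8 were found among the 38293 genes of the count files. P6D4 is a SCID.adh thymic lymphoma line labelled as DN3, an early thymocyte stage, and 70Z/3 is a lymphoblast line labelled as pre-B. No treatment is named for either line. RNA-Seq covered 3 libraries per line, and genes received 48.3 to 54.8 M counts per P6D4 library and 45.5 to 48.9 M per 70Z/3 library. Miz1, a zinc finger transcription factor encoded by Zbtb17, was mapped by ChIP-Seq once per line. Each lineage is represented by a single line, so lineage and line cannot be told apart, and nothing in the labels says that the RNA libraries came from separate cultures. The spread behind each p-value is therefore that among these libraries and may be technical.

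SLAM receptors carry immunoglobulin-like domains and belong to the CD2 family. Most of them bind the same receptor on a neighbouring cell, and the tails of most members hold tyrosine motifs that recruit the small adaptor SAP, encoded by Sh2d1a, which in turn binds the kinase Fyn. When SAP is absent the same motifs can bind the phosphatases SHP-1, SHP-2 and SHIP-1. In the thymus, contacts through Slamf1 and Slamf6 are known for their part in the development of natural killer T cells. In the B lineage the receptors take part in contacts between B and T cells.

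Markers of the labelled lineages, pre-B and thymocyte, were higher in the line with that label. The 7 pre-B markers summed to 1760 to 1800 CPM (counts scaled to library size, with TMM factors) in 70Z/3 and 0.698 to 1.30 CPM in P6D4. The 7 thymocyte markers summed to 1880 to 1930 CPM in P6D4 and 95.6 to 98.2 CPM in 70Z/3. Of the sum in 70Z/3, Lck made up 95.2 CPM on average. Cd8a, also on the thymocyte list, averaged 73.6 CPM in P6D4 and 0.0427 CPM in 70Z/3. DN stands for double negative, cells without surface CD4 and CD8, so Cd8a does not go with the DN3 label. The thymocyte list therefore speaks for the lineage and not for the stage. The 6 NK markers summed to 270 to 333 CPM in P6D4, of which Gzma made up 295 CPM on average, and to 2.42 to 3.06 CPM in 70Z/3, and Eomes was at 0 in both lines, with Ncr1 and Prf1 at 0 in 70Z/3. Called higher in P6D4 were 7 of 7 thymocyte and 2 of 3 tested NK markers (Gzma and Nkg7, with Klrb1c lower). Called lower were 7 of 7 pre-B markers. Over all genes tested, 43.3% were called higher and 43.2% lower. The 7 myeloid markers summed to 31.0 to 37.7 CPM in P6D4 and 23.3 to 24.9 CPM in 70Z/3, where Adgre1 was at 0. Of the 4 tested, 2 were higher in P6D4 (Itgam, at 29.1 against 7.07 CPM, and Cd68) and 2 were lower, namely Lyz2, at 1.96 against 12.3 CPM, and Csf1r, with 2 counts in all against 398. Lyz2 and Csf1r thus moved in the direction of Slamf9, and Itgam and Cd68 in the opposite direction. The 4 plasma markers summed to 160 to 172 and 170 to 176 CPM, with Xbp1 higher in P6D4 (141 against 83.4 CPM). Sdc1, at 22.5 against 82.9 CPM, and Prdm1, at 3.19 against 6.83 CPM, were lower there. Slamf7 was lower in P6D4 too, as was the NK marker Klrb1c, while Xbp1 and the NK markers Gzma and Nkg7 were higher. The 5 erythroid and platelet markers summed to 5.19 to 6.28 and 2.82 to 3.19 CPM. Of the latter, Pf4 was at 0 in both lines, Hbb-bt in P6D4 and Hba-a1 in 70Z/3. The part of these marker genes in the SLAM gene differences was not tested.

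The 8 genes as a set were read less in P6D4 than in 70Z/3. Together they gave 143, 151 and 150 CPM in the P6D4 libraries and 380, 376 and 365 CPM in the 70Z/3 libraries. Cd244a, which encodes the SLAM receptor 2B4 (SLAMF4), is not among the 8. It averaged 0.0375 CPM in P6D4 and 110 CPM in 70Z/3, and is left out of the totals and rankings of members. Of the 7 members with enough counts to test, 6 were lower in P6D4, 0 were higher and Ly9 was not called (edgeR quasi-likelihood test, Benjamini-Hochberg adjusted p under 0.05). Over all 13750 genes tested, 86.5% were called, 43.3% as higher and 43.2% as lower in P6D4, so a call in itself is common between these lines. Against a 2-fold difference 4 members were lower, namely Slamf6, Slamf7, Slamf9 and Cd84, and over all genes tested 35.2% passed that test, 18.6% as lower. The median log2 fold change was -3.37 over the 7 members and 0.01 over all genes tested. Slamf8 was not tested because of its low counts. RNA from whole cultures cannot tell fewer expressing cells from less RNA per cell.

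**Figure D1:**
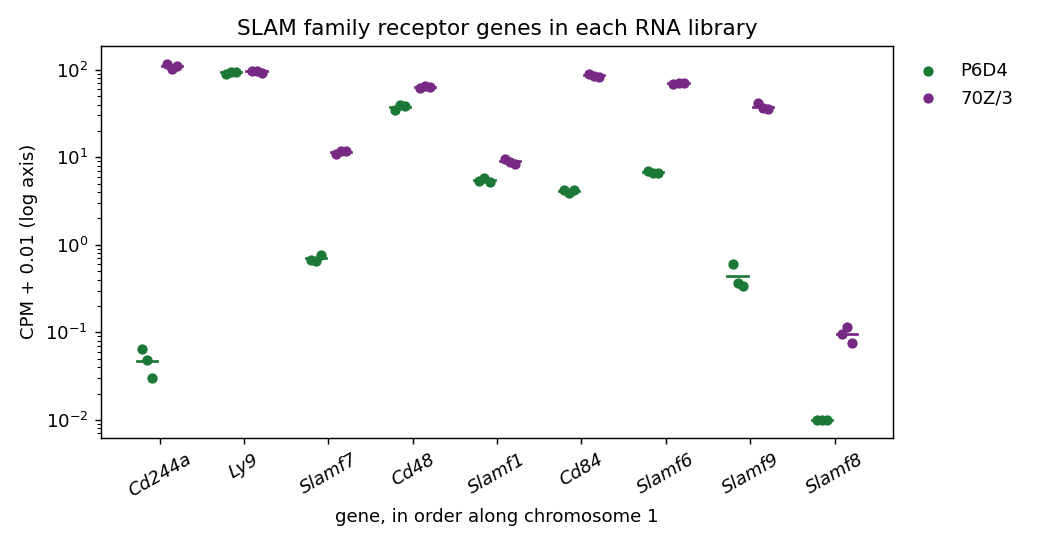
CPM plus 0.01 on a log axis for the 8 SLAM family genes and for Cd244a, a SLAM receptor gene outside the 8, in each RNA library. Genes are ordered along chromosome 1, points are libraries and lines are means of 3. Ly9 overlaps between the lines, Slamf1 and Cd48 are modestly lower in P6D4, and Cd84, Slamf6, Slamf7 and Slamf9 lie far below 70Z/3 in P6D4.

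Cd84, a homophilic receptor that is also known as SLAMF5, was among the members that differed most. It had 234, 204 and 205 counts in the P6D4 libraries and 4232, 4104 and 3753 in those of 70Z/3. These were levels of 4.22, 3.87 and 4.21 CPM against 90.0, 85.0 and 83.4 CPM. All 3 P6D4 libraries thus lay far below all 3 of 70Z/3, with means 21.0-fold apart. By edgeR the adjusted p was 1.24e-16, for a log2 fold change of -4.39 ± 0.06, where the error is an SE taken from the test itself. Over all genes tested, 16.9% had a larger difference in either direction.

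Slamf6, known as Ly108 in the mouse, had 386, 350 and 321 counts in P6D4 and 3212, 3431 and 3134 in 70Z/3. Scaled to depth this gave 6.96, 6.64 and 6.59 CPM in P6D4 against 68.3, 71.1 and 69.6 CPM in 70Z/3. The libraries of each line were close to one another and the lines did not overlap. Their means were 10.4-fold apart, and edgeR gave -3.37 ± 0.05 (SE) on the log2 scale with an adjusted p of 3.73e-16. Slamf6 was compared with its neighbour Cd84 within each library. There were 1.65, 1.72 and 1.57 Slamf6 counts per Cd84 count in P6D4 and 0.759, 0.836 and 0.835 in 70Z/3. These ratios do not depend on sequencing depth, and they do not overlap between the lines. Against Ly9, Slamf6 gave ratios of 0.0769, 0.0706 and 0.0696 in P6D4 and 0.703, 0.732 and 0.754 in 70Z/3. The ratios of Cd84 to Ly9 were 0.0466, 0.0411 and 0.0445 in P6D4 and 0.926, 0.876 and 0.903 in 70Z/3 and did not overlap between the lines either. These ratios are given as a description, with no test.

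Slamf7, also called CRACC and known from natural killer and plasma cells, was present at 0.667, 0.645 and 0.759 CPM in P6D4 and 10.8, 11.9 and 11.9 CPM in 70Z/3. The P6D4 values rest on 37, 34 and 37 counts, those of 70Z/3 on 509, 573 and 534. The lowest 70Z/3 library stood far above the highest of P6D4, with means 16.7-fold apart. The difference was -4.06 ± 0.11 on the log2 scale (SE), with an edgeR adjusted p of 3.44e-13. Here too the SE understates the counting error of the P6D4 libraries.

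Slamf9 and Slamf8 are members with short tails that lack the tyrosine motifs of the others, and both are known mainly from myeloid cells. Slamf9 had the greatest difference of the 7 tested members. It gave 1943, 1769 and 1617 counts in the 70Z/3 libraries (41.3, 36.7 and 35.9 CPM) and 33, 19 and 16 counts in P6D4 (0.595, 0.361 and 0.328 CPM). The first P6D4 library was the highest of its line, and all 3 stayed far below 70Z/3. The means were 88.7-fold apart, a log2 difference of -6.45 ± 0.13 (SE) with an edgeR adjusted p of 8.89e-15, and 7.79% of all genes tested had a lower value. At the low counts of P6D4 this SE understates the counting error. Slamf8 gave 0 counts in each P6D4 library and 4, 5 and 3 counts in 70Z/3. A count of 0 allows up to 3 counts per library, so no fold is given for Slamf8. It missed the filter on low counts, and with no filter it was called lower in P6D4.

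Slamf1 and Cd48 differed less than the members above. Slamf1, the receptor CD150 that also marks blood stem cells, gave 5.28, 5.82 and 5.23 CPM in P6D4 and 9.64, 8.81 and 8.46 CPM in 70Z/3. These rest on 293, 307 and 255 counts against 453, 425 and 381. The lines did not overlap, and Slamf1 differed by -0.72 ± 0.08 on the log2 scale (SE), or 1.65-fold, with an edgeR adjusted p of 2.41e-06. Cd48, a protein held in the membrane by a lipid anchor that serves as ligand for CD2 and 2B4, gave 34.7, 39.5 and 38.4 CPM in P6D4 and 62.4, 65.7 and 63.1 CPM in 70Z/3. Every P6D4 library of Cd48 lay below every 70Z/3 library, with means 1.70-fold apart. The log2 difference was -0.77 ± 0.05 (SE), and the edgeR adjusted p was 4.36e-09. Neither Slamf1 nor Cd48 passed against a 2-fold difference. Slamf1 counts per Cd48 count were 0.152, 0.148 and 0.136 in P6D4 and 0.154, 0.134 and 0.134 in 70Z/3, ranges that overlap. Cd48 counts per Ly9 count were 0.384, 0.420 and 0.406 in P6D4 and 0.642, 0.677 and 0.684 in 70Z/3, ranges that do not.

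Ly9, also known as CD229, was the exception among the tested members. It had 5019, 4960 and 4611 counts in P6D4 and 4571, 4685 and 4156 in 70Z/3. The levels were 90.5, 94.1 and 94.6 CPM in P6D4 and 97.3, 97.1 and 92.3 CPM in 70Z/3, so the lines overlapped. The difference of -0.04 ± 0.04 on the log2 scale (SE) had an edgeR adjusted p of 0.34, and its sign turned to 0.02 under upper quartile scaling, so no direction is given. Of the 7 tested members, Ly9 alone had overlapping libraries. Over all genes tested, 87.4% had no overlap between the lines, and 43.6% of all genes tested had every P6D4 library below every 70Z/3 library.

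The make-up of the counts of the 8 genes, with Cd244a left out, differed between the lines. Ly9 took 62.9 ± 0.490% of the counts of the 8 genes in P6D4 and 25.6 ± 0.243% in 70Z/3 (SD, n = 3). Cd48 took 25.3 ± 0.948% and 17.1 ± 0.560%. Cd84 made up 2.77 ± 0.195% in P6D4 and 23.0 ± 0.577% in 70Z/3, and Slamf6 4.55 ± 0.274% and 18.7 ± 0.586%. Slamf9 took 10.9, 9.74 and 9.85% in the 70Z/3 libraries and 0.291 ± 0.109% in P6D4. Slamf7 took 0.467 ± 0.0392% and 3.09 ± 0.210%, and Slamf1 3.68 ± 0.187% and 2.40 ± 0.120%, so the shares of Ly9, Cd48 and Slamf1 were larger in P6D4 and those of Slamf6, Cd84, Slamf7 and Slamf9 smaller. The shares are of counts and depend on transcript length, so they compare a gene between the lines and not the genes with one another.

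**Figure D2:**
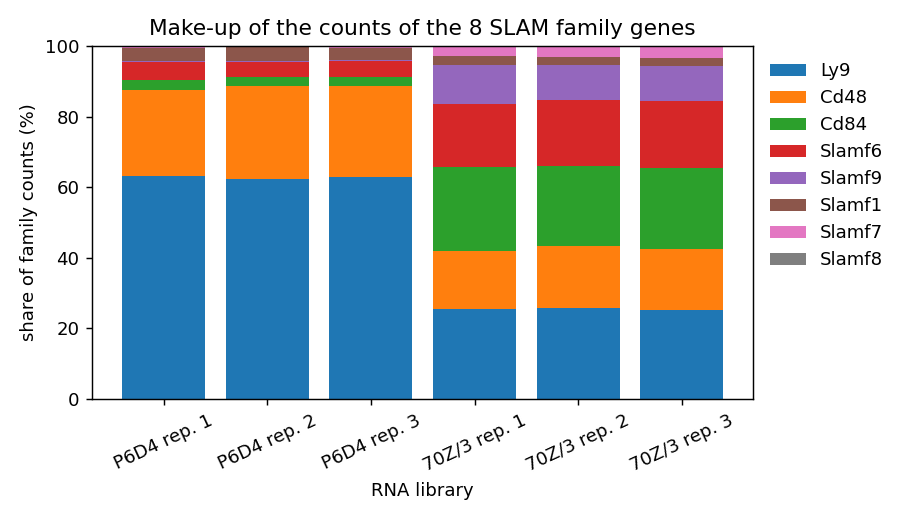
Share of the summed counts of the 8 SLAM family genes taken by each gene, in percent, in each of the 6 RNA libraries. Ly9 holds 62.4 to 63.3% in P6D4 and 25.3 to 25.8% in 70Z/3, while Cd84 and Slamf6 widen in 70Z/3.

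All 8 genes lie on chromosome 1 in RefSeq's table (GRCm38.p6), and the positions here are gene bounds. In the count files Slamf1 is ENSMUSG00000015316, Slamf6 ENSMUSG00000015314, Slamf7 ENSMUSG00000038179, Slamf8 ENSMUSG00000053318, Slamf9 ENSMUSG00000026548, Cd48 ENSMUSG00000015355, Cd84 ENSMUSG00000038147 and Ly9 ENSMUSG00000004707. Ly9, Slamf7, Cd48, Slamf1, Cd84 and Slamf6 follow one another over 360 kb, and Slamf9 and Slamf8 lie 510 kb beyond Slamf6. Along this stretch Slamf7, which differed much, stands between Ly9 and Cd48, which did not. Among the members Cd48 and Slamf1, with small differences, follow one another, and so do Cd84 (chr1:171839697-171890718) and Slamf6, with large ones. The counted genes Tma7-ps and Gm22950 lie between Cd48 and Slamf1. Slamf9 (chr1:172458569-172478421) and Slamf8 (chr1:172581377-172590873) span 132 kb together. Noncoding gene models overlap Cd84 and the start of Slamf6, and whether the counting used strand was not stated in what was read here, so reads of both could be mixed there.

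Of 21 tested genes within 200 kb of a member, other than the members, 17 were lower in P6D4, 2 were higher (Tma7-ps and Pex19) and 2 were not called (Dcaf8 and Igsf8), and their median was -1.74 on the log2 scale. Over all genes tested, 86.5% were called, 43.3% as higher and 43.2% as lower in P6D4. Against a 2-fold difference 11 of the 21 were lower and 0 higher, where 18.6% of all genes tested were lower and 16.6% higher. Within 500 kb, 25 of 38 tested genes were lower and 9 higher. Cd244a, which encodes the receptor 2B4 and lies 3.3 kb from Ly9, gave 3, 2 and 1 counts in P6D4 and 5502, 4990 and 4967 in 70Z/3. The count ratio of 70Z/3 to P6D4 was 2880, with an exact 95% interval of 1320 to 7850 that covers counting error only, next to a Ly9 that was not called. Vangl2, a planar polarity gene on the far side of Slamf6, gave 5 counts in all in P6D4 and 94.3 CPM in 70Z/3. Igsf9, 3.15 kb from Slamf9, differed by -7.19 ± 0.15. Pigm, on the other side of Slamf9, differed by -0.44, and Tma7-ps, next to Cd48, was higher by 0.71. With so few counts in the lower line, the SE of Igsf9 understates the counting error.

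**Figure D3:**
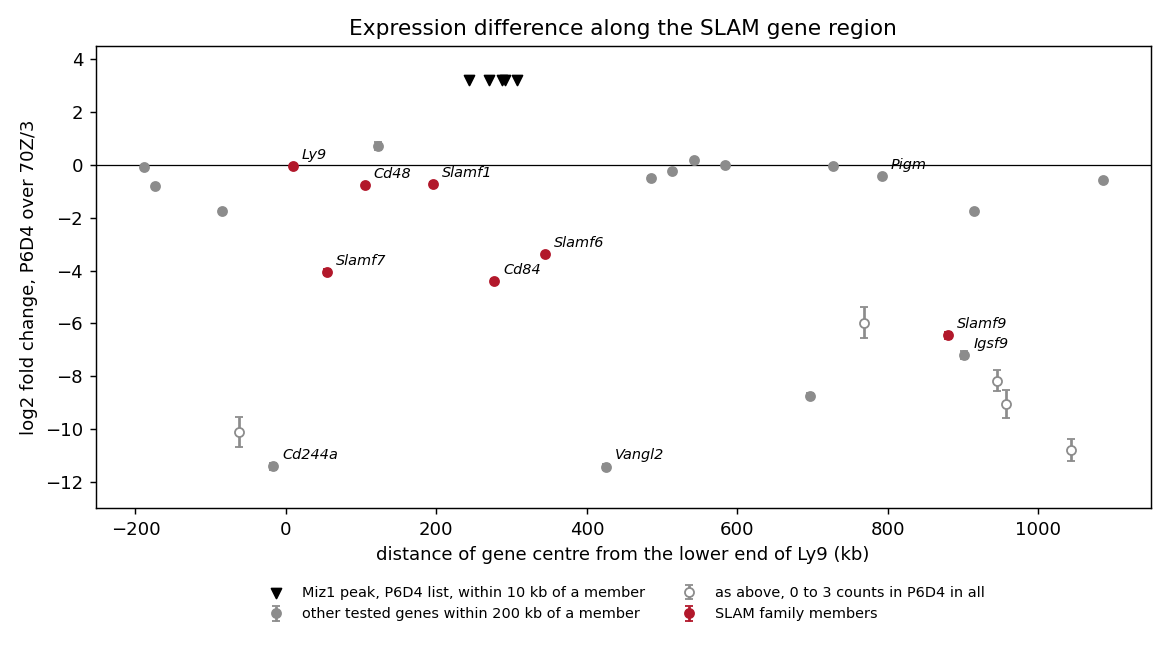
Log2 fold change, P6D4 over 70Z/3, with SE bars, against distance from the lower end of Ly9 in kb for the tested SLAM family genes (red) and the other tested genes within 200 kb of a member (grey; open circles have 0 to 3 counts in P6D4, so their fitted values depend on the prior count). Black triangles mark the 5 Miz1 peaks of the P6D4 list within 10 kb of a member, all at Cd84.

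The promoters were read to see what short sequences the members share. RefSeq promoter sequences (GRCm38.p6) were found for 7 of the 8 members, and none for Ly9. The 250 bases before the start are shown for the neighbours Cd84 and Slamf6, which carry tyrosine motifs and differed much, for the short-tailed Slamf9, and for Cd48 as a gene that differed little. Capitals mark the E-box CANNTG, the core bound by E proteins, and the Ets-type motif GGAAGT on either strand. The E-box reads the same on both strands, no E-box overlapped a GGAAGT in the members, and adjoining matches in Slamf9 run together.
Cd84: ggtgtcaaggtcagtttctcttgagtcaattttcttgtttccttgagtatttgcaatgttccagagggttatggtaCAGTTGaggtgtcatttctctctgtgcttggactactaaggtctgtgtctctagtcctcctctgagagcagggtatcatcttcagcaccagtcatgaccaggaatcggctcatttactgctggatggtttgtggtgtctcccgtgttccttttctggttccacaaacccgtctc
Slamf6: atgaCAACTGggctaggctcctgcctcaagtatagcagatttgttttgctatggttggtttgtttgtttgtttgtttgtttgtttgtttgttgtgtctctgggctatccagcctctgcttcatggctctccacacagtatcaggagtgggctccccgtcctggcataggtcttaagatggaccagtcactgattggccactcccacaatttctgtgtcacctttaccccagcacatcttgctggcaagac
Slamf9: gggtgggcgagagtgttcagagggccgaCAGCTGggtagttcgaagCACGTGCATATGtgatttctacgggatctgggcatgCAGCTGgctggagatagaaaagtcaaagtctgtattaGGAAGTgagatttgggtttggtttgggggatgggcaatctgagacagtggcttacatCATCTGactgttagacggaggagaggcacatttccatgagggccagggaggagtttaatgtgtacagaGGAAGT
Cd48: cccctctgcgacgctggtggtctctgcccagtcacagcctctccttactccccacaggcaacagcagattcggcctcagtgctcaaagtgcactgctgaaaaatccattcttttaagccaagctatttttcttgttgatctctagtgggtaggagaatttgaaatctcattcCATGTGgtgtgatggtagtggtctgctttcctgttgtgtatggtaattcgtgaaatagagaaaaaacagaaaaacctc
These windows lie on the plus strand at chr1:171839447-171839696 for Cd84, chr1:171917212-171917461 for Slamf6, chr1:172475110-172475359 for Slamf9 and chr1:171681742-171681991 for Cd48. The start used for Slamf9 lies 16.8 kb inside the gene's bounds, that for Slamf7 4.0 kb, for Cd48 0.7 kb and for Slamf8 0.3 kb. The printed Slamf9 and Cd48 windows thus lie within the gene bounds. An E-box was found in 7 of 7 member promoters and in 66.2% of all 32851 promoter windows of this length. Slamf9 and Slamf8 each held 5, a number reached by 1.15% of all windows, and the other 5 members held 1 each. GGAAGT was found at 2 members, Slamf8 and Slamf9, and in 19.7% of all windows. The motif ATCGAT, known from Miz1 studies, was found at 0 of 7 members and in 0.728% of all windows. A match is a description of these letters and not a site of binding.

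Within 10 kb of the family genes, Miz1 peaks were listed in P6D4 and there only at Cd84. The authors listed 21629 peaks for P6D4 and 10462 for 70Z/3, each from 1 library, so no replicate check exists. Of the P6D4 peaks 5 lay within 10 kb of Cd84, at chr1:171831638-171831954, chr1:171858887-171859157, chr1:171876304-171876623, chr1:171879717-171880260 and chr1:171896217-171896505. Of these, 3 lay within the gene's bounds, 1 lay 7.8 kb before its start and 1 lay 5.7 kb past its end. Their fold over background, as the authors give it, was 6.29, 7.43, 6.92, 8.46 and 10.0, on pileups of 9 to 12. By fold they stood at percentiles 44.7, 66.0, 59.3, 78.1 and 88.8 of the P6D4 list. The 70Z/3 list had 0 peaks within 10 kb of any member, and its nearest peak to Cd84 was 163.2 kb away. The nearest 70Z/3 peak to any member was 18.1 kb from Slamf8. Of 21900 protein-coding genes, 14.7% had at least 1 peak of the P6D4 list in such a window and 15.8% at least 1 of the 70Z/3 list, so 1 of 8 members in P6D4 and 0 of 8 in 70Z/3 are no result about the family. At least 5 peaks were found at 2.28% of these genes in P6D4 and 0.525% in 70Z/3. Cd84 is a long gene, and among genes spanning 40 to 60 kb the P6D4 share with at least 5 was 1.9%. Only 1 of the 5 peaks at Cd84 passed a stricter threshold of 10 for -log10 q. Redundant tags made up 97.0% in P6D4 and 85.0% in 70Z/3, per the file headers, which left 2.07 M and 4.48 M tags. Their part in the difference between the lists was not tested.

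Of the SH2D genes read here, only Sh2d1a, Sh2d1b1 and Sh2d1b2 belong to the SAP family, and the others were kept for comparison. Of the 4 tested genes, 2 were higher and 2 lower in P6D4, where 43.3% of all genes tested were higher and 43.2% lower. Sh2d1a was the only SAP family gene among the 4. Sh2d1a, which encodes SAP, gave 971, 910 and 833 counts in P6D4 (17.3 ± 0.205 CPM, SD, n = 3) and 0, 3 and 0 in 70Z/3. All 3 P6D4 libraries stood far above 70Z/3. The count ratio was 809 in favour of P6D4, with an exact 95% interval of 276 to 3920 that covers counting error only. Of its closest relatives, Sh2d1b2 had 0 counts in every library and Sh2d1b1 had no match among the counted genes. Sh2d2a, a T cell adaptor that binds Lck, and Sh2d3c were lower in P6D4, at -3.13 ± 0.08 and -2.94 ± 0.08 on the log2 scale (SE). Sh2d4b was higher by 0.75 ± 0.16, and Sh2d4a, with 0 counts in P6D4 and 8, 5 and 1 in 70Z/3, was not tested.

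Of 24 further genes of SLAM signalling, 18 were lower in P6D4, 4 were higher and 2 were not called, and the median was -0.55 on the log2 scale. Over all genes tested, 86.5% were called, 43.3% as higher and 43.2% as lower in P6D4. Against a 2-fold difference, 8 of the 24 were lower and 3 higher, where 18.6% of all genes tested were lower and 16.6% higher. Fyn, the kinase that SAP recruits, stood at 150 ± 5.65 CPM in P6D4 against 222 ± 3.35 in 70Z/3 (SD, n = 3), a difference of -0.57 ± 0.04 on the log2 scale (SE) with an edgeR adjusted p of 3.16e-09. The genes of the 3 phosphatases that can bind the tails were lower as well. Ptpn6, which encodes SHP-1, differed by -2.50 ± 0.04, Inpp5d, which encodes SHIP-1, by -2.95 ± 0.05, and Ptpn11, which encodes SHP-2, by -0.53 ± 0.03. The largest falls were those of Vav3, of the kinase Lyn and of the phospholipase Plcg2, at -11.93, -11.30 and -9.05 on the log2 scale. Vav3 and Lyn had 4 and 5 counts in all in P6D4, so their fitted values depend on the prior count. The largest rises were those of Fgr, a Src family kinase, at 6.83 ± 0.18, of Lck, the Src family kinase of T cells, at 2.07 ± 0.03, and of Ptprc, the phosphatase CD45, at 1.31 ± 0.04. Fgr had 10 counts in all in 70Z/3, so its SE understates the counting error. The uncalled genes were Nck1, at 33.0 and 31.5 CPM, and Becn1, at 143 CPM in both lines.

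**Figure D4:**
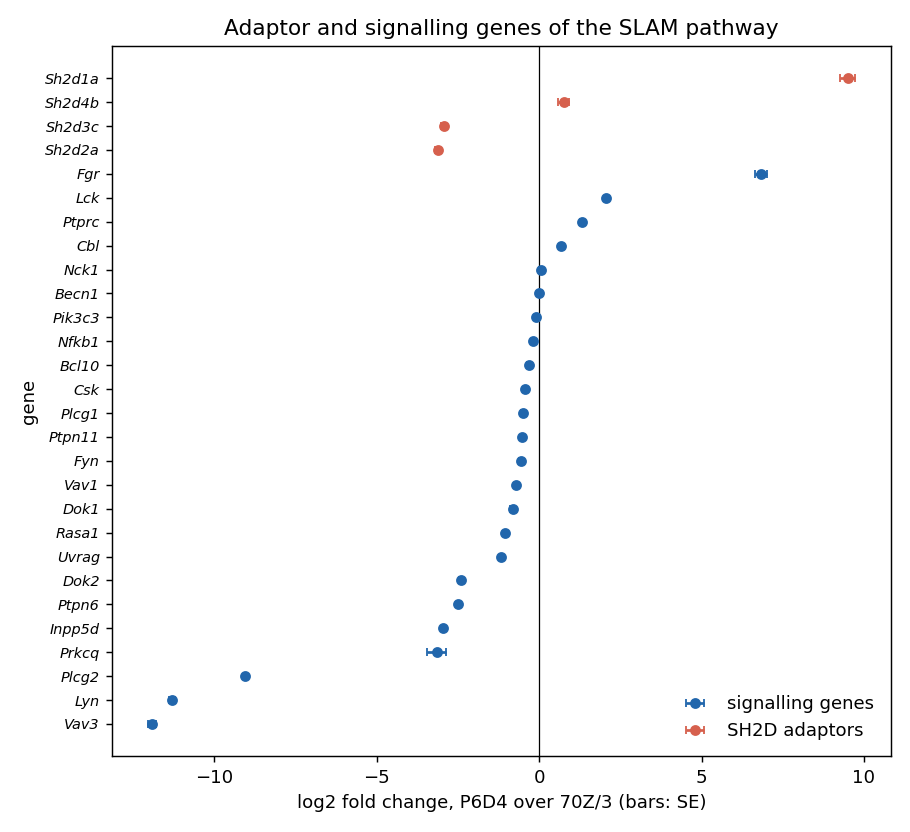
Log2 fold change, P6D4 over 70Z/3, with SE bars, for the 4 tested SH2D adaptor genes (red) and the 24 signalling genes (blue). Of the red genes only Sh2d1a is of the SAP family. Sh2d1a, with 3 counts in 70Z/3 in all, stands at the far right, and Plcg2, Lyn and Vav3 stand at the far left.

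A list of CD2-type and other immunoglobulin-like receptor genes was read beside the members. Cd2, which binds Cd48, gave 2194, 2343 and 1916 counts in P6D4 and 198, 176 and 177 in 70Z/3. P6D4 was higher in every library, by 3.39 ± 0.08 on the log2 scale (SE), with an edgeR adjusted p of 3.51e-14. The other receptor for Cd48, Cd244a, differed the other way, as given above. Cd96 was lower in P6D4, at -2.58 ± 0.13 on the log2 scale (SE), and Crtam gave 0 counts in P6D4 and 9, 10 and 12 in 70Z/3. Cd226, a receptor of T and NK cells, gave 439, 615 and 710 counts in P6D4 and 0, 0 and 1 in 70Z/3, which did not overlap. Its P6D4 libraries differed among themselves, at 7.91, 11.7 and 14.6 CPM, and the single count in 70Z/3 leaves the ratio of 1580 with an exact 95% interval of 283 to 62300 for counting error only. Of this list, 2 of the 5 tested genes were higher in P6D4 (Cd2 and Cd226) and 3 lower, where 43.3% of all genes tested were higher and 43.2% lower.

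For each tested member the 2 genes with the nearest levels over the 6 libraries were sought by Euclidean distance of log2(CPM + 1). Naaa and Tagap were nearest to Slamf1, Ptpn18 and Arhgap31 to Slamf6, and Spef2 and Tmem121 to Slamf7. Tex14 and Tmem243 were nearest to Slamf9, Tada1 and Hps3 to Cd48, and Spred2 and Napsa to Cd84. Ikbkb and Zfp646 were nearest to Ly9, at distances of 0.0837 and 0.0908. The other distances ran from 0.151 to 0.445.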

How the data were processed

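RNA-Seq of 6 libraries and Miz1 ChIP-Seq of 2 lines were used; the 8 input and histone mark samples were not analysed here. The RNA values are raw counts per Ensembl gene, deposited by the authors. Per the submitters' processing notes, TopHat2 2.0.10, Bowtie2 2.10 and HTSeq were among the tools. Summary lines naming no gene were left out; 14.5 to 16.0% of unique reads fell outside genes. Peaks were called with MACS 2.0.10.20120913 at a q-value of 0.01, per the file headers. The authors' deposited peak values are pileup signal, fold ratio over background and -log10 p and q.

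Counts were scaled with TMM and tested with edgeR 4.0.16 in R 4.3.3 (filterByExpr, quasi-likelihood test, Benjamini-Hochberg over all genes tested), after a test on simulated data. The SE is the log2 fold change divided by the square root of F; it understates counting error at few counts. Differences over 2-fold were tested with glmTreat, and DESeq2 1.42.0 was an alternative. No libraries were identical, and within a line chi-square over its degrees of freedom was 2.46 to 13.8, so none was merged. Levels per length and tyrosine motif counts were planned but not analysed here.

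Named were all members, tested adaptors, the 3 largest called signalling genes in each direction and those not called, called genes adjoining a member, and the 2 nearest genes per member. Fyn, Ptpn6, Inpp5d, Ptpn11, Cd2, Cd96, Cd226, Crtam, Pex19, Dcaf8, Igsf8, untested adaptors, the printed promoters and the single markers were picked after their values were seen. The members and lists were chosen with earlier results of these data known.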

Additional observations from a re-analysis of the deposited data

How the results depend on the processing

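The count of 6 called members stayed between 4 and 7 under the alternatives tried. Those were other scalings (DESeq2 size factors, library totals and upper quartile), the DESeq2 Wald test, no filter and a filter of 10 CPM in 3 libraries, a 2-fold null, a replicate block and leaving out each library. No called member changed direction. Of 55 fold changes under settings that keep all libraries, 52 kept direction and side of the threshold, as did 42 of 42 with 1 library left out, over ranges of -6.77 to -6.29 for Slamf9 and -4.42 to -4.35 for Cd84. Against 2-fold, Slamf1 at -0.72 and Cd48 at -0.77 lost their call. Ly9, not called, turned to 0.02 under upper quartile scaling; the cause was not tested. At 2-fold, the called signalling genes went from 22 to 11 and the neighbouring genes from 19 to 11, since the null is wider; with a 500 kb window the latter were 34, since more genes were tested. The filter of 10 CPM left 3 called genes of the CD2-type and immunoglobulin-like list in place of 5, since it tests fewer, and dropped Slamf1. With no filter Slamf8 was called lower. Miz1 peaks at the members went from 5 to 1 in P6D4 at -log10 q of at least 10, and from 0 to 1 in 70Z/3 within 50 kb. Same-numbered libraries of the lines did not deviate together (correlations -0.0554, -0.0462 and 0.00835); the fit with a replicate block called 6 members, 21 signalling and 18 neighbouring genes. A looser tyrosine motif was not run. Depth limits Slamf8, Cd244a and Sh2d1a, which had few or 0 counts in one line.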
